A study of Rattus with 6 samples.

Results

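The genes described here carry glucose into the cell, break it down to pyruvate and lactate, and set how much pyruvate is oxidised in the mitochondrion. They were taken from a list of 34 symbols matched to the gene names of a table of read counts from rat bone marrow mesenchymal stem cells (BMSC), progenitors of the marrow stroma that give rise to bone, fat and cartilage in culture. Of the 34, 33 were found among 30211 genes in the table and 31 had enough counts to be tested, while Gapdh was not analysed here. The study compared 3 libraries of cells cultured for 4 days with 100 uM dexamethasone, a synthetic glucocorticoid, with 3 libraries of control cells. Both groups are labelled wild type and of bone origin. Groups were taken from the sample titles and descriptions, because the treatment tag reads DEX for all 6 samples. The sources used here do not say whether controls received vehicle or whether replicates were separate cultures or animals. Each p-value therefore reflects the spread between these libraries alone, and that spread may be technical.

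Glucose enters stromal cells through facilitative carriers, is trapped by hexokinases, committed by phosphofructokinase and oxidised stepwise to pyruvate. Lactate dehydrogenase turns pyruvate into lactate, which leaves through monocarboxylate transporters, while the pyruvate dehydrogenase complex sends it to mitochondrial oxidation. Glucocorticoids are known to restrain glucose uptake in peripheral tissues and to raise the kinases that switch off pyruvate dehydrogenase.

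Library totals ranged from 34835072 to 41676315 counts in the dexamethasone libraries and from 39156705 to 40291671 in the controls. Counts scaled to library size (CPM) correlated on a log2 scale at 0.994 or more inside a group, and at 0.936 to 0.937 across groups. Fkbp5, a co-chaperone of the glucocorticoid receptor and a target of it, averaged 1370 ± 72.2 CPM in dexamethasone libraries and 69.8 ± 1.06 CPM in controls (SD, n = 3 each), so the titles and this target separated the libraries the same way. Among 13 tested stromal markers, 6 rose, 5 fell and 2 did not pass, while 64.0% of all tested genes were called. At least 2-fold changes were 3 rises (Vim, Col3a1 and Lepr, the last under 1 CPM on average in each group) and 2 falls. The falls were Prrx1 (75.5 ± 2.51 CPM with dexamethasone, 726 ± 19.2 CPM in controls) and Pdgfrb (137 ± 7.94 CPM with dexamethasone, 616 ± 11.8 CPM in controls). Markers of other cells were low. The 16 macrophage markers summed to 9.16 to 9.83 CPM in dexamethasone libraries and 13.2 to 14.1 CPM in controls, most of it Cd14, and Adgre1, Tyrobp, Laptm5, C1qa and C1qb had no count in any library. The 9 endothelial markers summed to at most 2.02 CPM with dexamethasone and 2.15 CPM in controls, with Emcn and Cldn5 at 0. The 9 adipocyte markers summed to at most 3.69 CPM with dexamethasone and 4.05 CPM in controls, with Lep at 0. The 8 erythroid markers summed to at most 0.566 CPM with dexamethasone and 1.06 CPM in controls, with Hbb and Slc4a1 at 0. The 11 skeletal muscle markers summed to 185 to 192 CPM with dexamethasone and 218 to 234 CPM in controls, nearly all of it Des, with Myog, Myf5 and Pax7 at 0. All 10 cell cycle genes examined rose, as did 32.3% of all tested genes. They summed to 2253 to 2272 CPM with dexamethasone against 678 to 698 CPM in controls. The part of these shifts in the results on glucose genes was not tested.

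Of the 31 tested genes of glucose uptake and glycolysis, 15 rose with dexamethasone, 11 fell and 5 did not pass, so 26 were called. Among all 14111 tested genes 64.0% were called, 32.3% higher and 31.7% lower. Genes were called where edgeR's quasi-likelihood test gave an adjusted p (Benjamini-Hochberg, over every tested gene) below 0.05. The median log2 fold change was 0.00 for the 31 genes and 0.00 for all genes tested. For 26 of the 31 the ranges of the groups were wholly apart, against 66.9% of all tested genes. Most shifts were small: 15 of the 26 called genes changed by under 1.5-fold, a class that held 36.6% of all tested genes. That percentage is of tested genes, and 5162 of the 9027 called genes were in this class. The median size of the log2 fold change, sign aside, was 0.326 for the 31 genes and 0.313 for all tested genes. Small shifts were therefore not particular to the glucose genes. At least 2-fold changes were 5 rises (Pfkfb3, Pdk4, Pdp1, Pfkfb1 and, at under 1 CPM, Slc2a4) and 1 fall (Slc16a3). Of all tested genes 15.6% were called with changes of that size, 8.65% with a rise. Tested against a fold change of 1.5, 9 of the 31 passed, 6 higher and 3 lower, against 20.0% of all genes (11.0% higher, 9.06% lower). In bulk RNA, fewer cells that express a gene and less of its RNA per cell cannot be told apart.

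**Figure D1:**
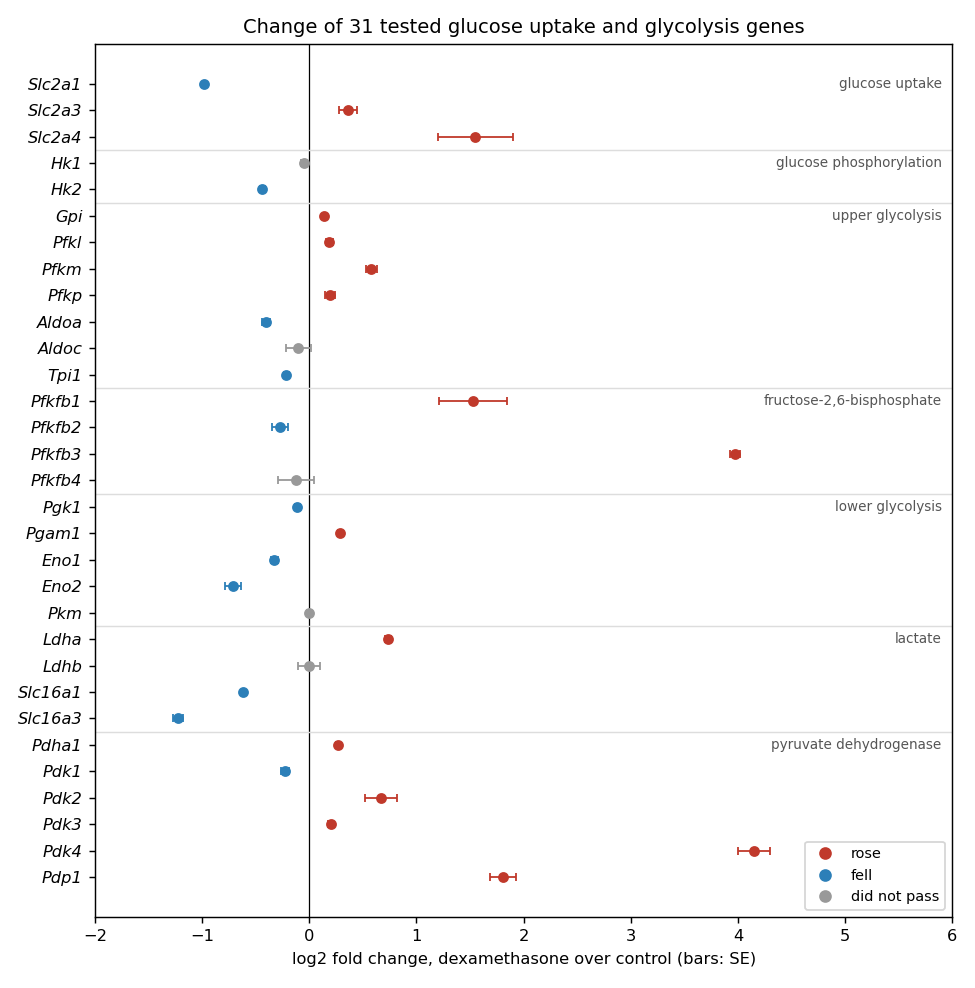
Log2 fold change, dexamethasone over control, of the 31 tested genes, grouped by role along the pathway; points are the fitted values, bars the SE, and colour the call. The enzymes from hexokinase to pyruvate kinase lie between -0.71 and 0.58, while Pfkfb3 and Pdk4 stand at 3.97 and 4.15.

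Changes in the main enzymes stayed under 2-fold. The 14 tested enzymes that carry carbon from hexokinase to pyruvate kinase had log2 fold changes between -0.71 and 0.58. Of these, 5 rose, 6 fell and 3 did not pass. By comparison, 64.0% of all tested genes were called, and 15.6% were called with at least 2-fold changes. The median size of the log2 fold change was 0.204 for the 14 and 0.313 for all tested genes. At the ends of the range, Eno2 fell by 38.8% and Pfkm rose by 49.4%. Levels compared between genes are given as TPM (counts divided by exon length and scaled to the same total in each library). The 6 changes of at least 2-fold comprised the regulators Pfkfb3, Pfkfb1, Pdk4 and Pdp1 and the carriers Slc2a4 and Slc16a3.

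Transcript levels of the glucose carriers moved in opposite directions. Slc2a1 (chromosome 5, 138154673 to 138182897) encodes GLUT1, the basal glucose carrier of most cultured cells. It had 45.3, 44.7 and 44.1 CPM in dexamethasone libraries 1 to 3, against 88.1, 87.7 and 88.7 CPM in controls. Every dexamethasone library lay below every control, at about the same level as each other. Slc2a1 fell by 49.3%, a log2 fold change of -0.98 ± 0.012 (SE, as for every fold change here; edgeR, adjusted p = 1.3e-25).

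Slc2a3 encodes GLUT3, a high-affinity carrier best known in neurons. It averaged 11.3 ± 1.18 CPM with dexamethasone and 8.80 ± 0.240 CPM in controls (SD, n = 3 each), a rise of 0.36 ± 0.088 on the log2 scale (edgeR, adjusted p = 6.1e-04). Slc2a4 encodes GLUT4, the insulin-responsive carrier of muscle and fat. It was scarce, under 1 CPM, with 18, 23 and 18 counts in dexamethasone libraries against 10, 4 and 6 in controls. Its groups did not overlap, and the log2 fold change was 1.55 ± 0.35 (edgeR, adjusted p = 0.0039). The control counts of 4 and 6 were at or under the floor of 6 counts used here, so the size of this rise is uncertain. Per exon length, Slc2a1 made up 68.9% ± 1.83 of the summed TPM of these 3 carriers with dexamethasone and 85.0% ± 0.263 in controls, and Slc2a3 30.3% ± 1.97 with dexamethasone and 14.8% ± 0.338 in controls (SD, n = 3 each). The summed level of the 3 carriers was 47.9 to 51.6 TPM in dexamethasone libraries and 78.5 to 79.6 TPM in controls.

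Hexokinases trap glucose by phosphorylating it. Hk2, the inducible isoform, fell to 219 ± 2.33 CPM with dexamethasone against 297 ± 7.02 CPM in controls (SD, n = 3 each), a log2 fold change of -0.44 ± 0.022 (edgeR, adjusted p = 9.7e-18). Hk1, the constitutive isoform, had 143 to 151 CPM with dexamethasone and 150 to 153 CPM in controls. Those ranges overlapped and Hk1 did not pass (log2 -0.05 ± 0.027, edgeR, adjusted p = 0.14), although it did without dexamethasone replicate 1 (adjusted p = 0.049). Hk1 supplied 57.5% ± 1.03 of hexokinase TPM with dexamethasone and 50.9% ± 0.430 in controls.

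The 3 phosphofructokinase genes, whose products catalyse the committed step, all rose. Pfkm (chromosome 7, 139685573 to 139722132) encodes the muscle-type subunit. It had 80.5, 82.2 and 76.8 CPM in dexamethasone libraries, against 50.8, 53.5 and 55.9 CPM in controls. The lowest dexamethasone library stood well above the highest control. Its log2 fold change was 0.58 ± 0.049 (edgeR, adjusted p = 1.5e-16). Pfkl, the liver type, and Pfkp, the platelet type, rose by 0.19 ± 0.031 and 0.19 ± 0.044 on the log2 scale (edgeR, adjusted p = 2.5e-06 and 2.9e-04). Pfkl remained the most abundant per exon length at 108 to 116 TPM in dexamethasone libraries and 97.3 to 99.5 TPM in controls. The Pfkm share grew to 25.4% ± 0.742 of phosphofructokinase TPM with dexamethasone, against 20.6% ± 0.787 in controls.

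The enzymes on either side of phosphofructokinase changed in both directions. Gpi, the isomerase ahead of it, rose by 0.14 ± 0.013 on the log2 scale (edgeR, adjusted p = 4.9e-04). Aldoa, the main aldolase, averaged 261 ± 8.35 CPM with dexamethasone and 345 ± 9.93 CPM in controls (SD, n = 3 each) and fell by 24.3%. Tpi1, triosephosphate isomerase, fell by 13.8% (edgeR, adjusted p = 5.9e-09). Aldoc, the brain-type aldolase, was at 4.34 ± 0.581 CPM with dexamethasone and 4.67 ± 0.186 CPM in controls and did not pass (edgeR, adjusted p = 0.51). Aldoa made up 98.4% ± 0.172 of aldolase TPM with dexamethasone and 98.7% ± 0.0715 in controls.

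The PFKFB enzymes make and degrade fructose 2,6-bisphosphate, the strongest activator of phosphofructokinase, and of these Pfkfb3 changed the most. Pfkfb3 encodes the isoform with the highest kinase over phosphatase activity (chromosome 17, 70684134 to 70713726). It had 463, 434 and 450 CPM in dexamethasone libraries, against 29.1, 29.6 and 27.1 CPM in controls. The gap between groups was many times the spread within either. Pfkfb3 rose 15.7-fold, a log2 fold change of 3.97 ± 0.048 (SE; edgeR, adjusted p = 6.4e-50), and 1.51% of all tested genes changed by more. Per exon length it ranked 930 among 30211 genes with dexamethasone and 7450 in controls.

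The 3 paralogs of Pfkfb3 differed among themselves. Pfkfb1, the liver and muscle isoform, had 58, 59 and 41 counts in dexamethasone libraries and 12, 20 and 23 in controls, a log2 fold change of 1.53 ± 0.32 at a level near 1 CPM (edgeR, adjusted p = 3.7e-05). Pfkfb2, the heart isoform, averaged 7.64 ± 0.584 CPM with dexamethasone and 9.23 ± 0.428 CPM in controls (SD, n = 3 each; log2 -0.27 ± 0.075, edgeR, adjusted p = 0.013), a call that was lost without dexamethasone replicate 1 (adjusted p = 0.083). Pfkfb4, the testis isoform, stood at 3.59 ± 0.678 CPM with dexamethasone and 3.89 ± 0.198 CPM in controls and did not pass (edgeR, adjusted p = 0.50). Pfkfb3 therefore made up 95.8% ± 0.521 of the PFKFB TPM with dexamethasone and 59.2% ± 2.15 in controls, while the summed level of the 4 genes was 190 to 201 TPM with dexamethasone and 20.0 to 20.4 TPM in controls. Fbp1 and Fbp2, the fructose bisphosphatases that run the opposite reaction in gluconeogenesis, were at or under the floor. Fbp1 had no count in any of 6 libraries, which allows up to 0.142 to 0.170 CPM by library for a floor of 6 counts. Fbp2 had 2 counts with dexamethasone and 2 in controls, and neither gene was tested.

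**Figure D2:**
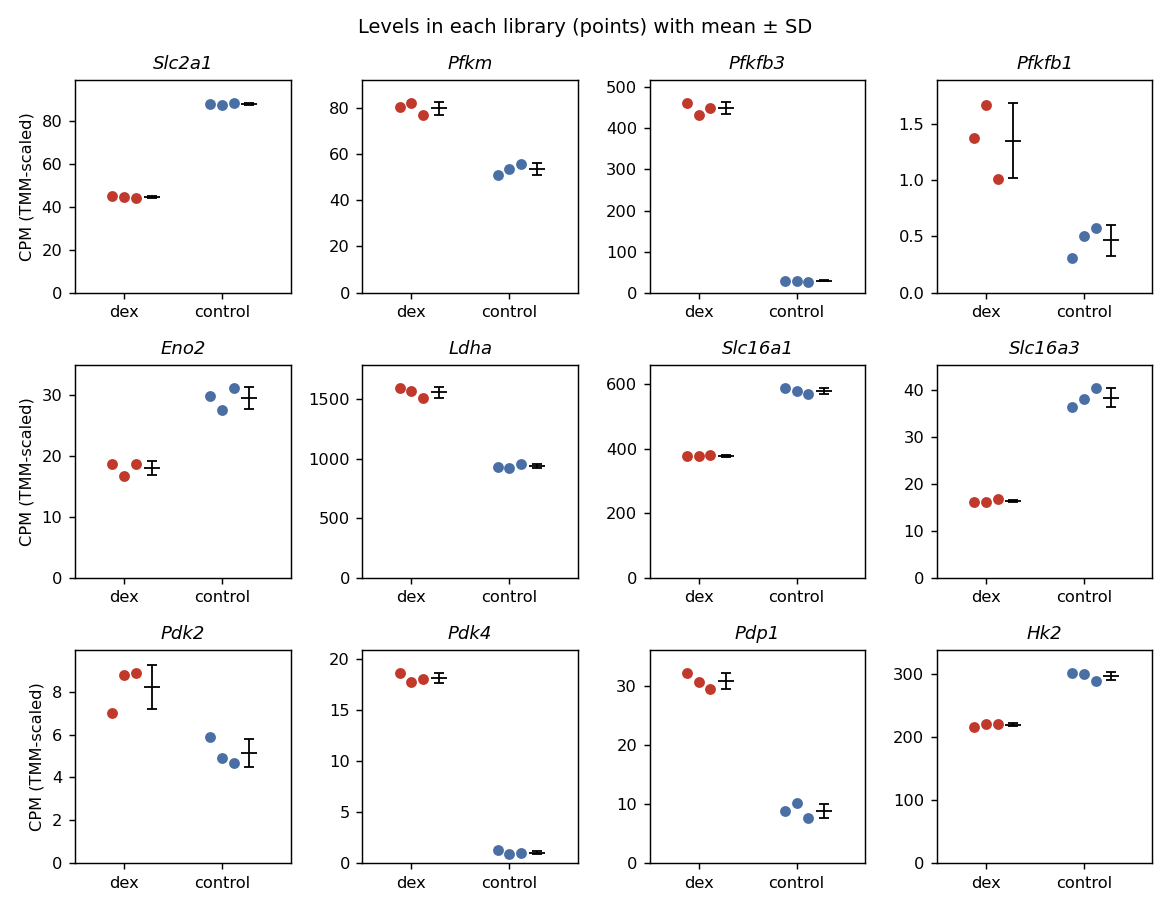
TMM-scaled CPM of 12 genes in each library; points are libraries 1 to 3 of each group, and the bar beside them is the mean ± SD. The 2 groups did not overlap for any of the 12, from Pfkfb3 (434 to 463 CPM with dexamethasone, 27.1 to 29.6 CPM in controls) to Pdk2 (7.01 to 8.86 CPM with dexamethasone, 4.67 to 5.88 CPM in controls). The 12 are among the 26 tested members without overlap, and 66.9% of all tested genes had none.

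Lower glycolysis, the steps that yield ATP, changed in both directions. Pgk1, phosphoglycerate kinase, averaged 398 ± 10.2 CPM with dexamethasone and 430 ± 4.56 CPM in controls (SD, n = 3 each) and fell by 7.5% (edgeR, adjusted p = 3.8e-04). Pgam1, phosphoglycerate mutase, went the other way, with 192 ± 2.98 CPM with dexamethasone and 158 ± 1.74 CPM in controls, a log2 fold change of 0.28 ± 0.016 (edgeR, adjusted p = 3.6e-11). Pkm, pyruvate kinase, had 1224 to 1265 CPM with dexamethasone and 1222 to 1255 CPM in controls. It did not pass (log2 -0.01 ± 0.020, edgeR, adjusted p = 0.85), and its sign turned with library size alone, without a filter on low counts and without some replicates.

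Both enolases fell. Eno1, the form found in most tissues and the more abundant of the pair, stood at 799 ± 28.3 TPM with dexamethasone and 1002 ± 17.4 TPM in controls (SD, n = 3 each), a log2 fold change of -0.33 ± 0.032 (edgeR, adjusted p = 1.0e-14). Eno2 (chromosome 4, 157285179 to 157294047) encodes the neuronal form. It had 18.8, 16.7 and 18.7 CPM in dexamethasone libraries against 29.9, 27.6 and 31.2 CPM in controls. No dexamethasone library reached the lowest control. Eno2 fell by 0.71 ± 0.075 on the log2 scale (edgeR, adjusted p = 3.0e-13). Eno2 lies 34331 bases from Tpi1 in the table's coordinates, the closest spacing among tested members, and both fell.

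Transcripts for lactate handling moved in opposite directions, up for the enzyme gene Ldha and down for the transporter genes. Ldha (chromosome 1, 102900286 to 102909707) encodes the muscle-type lactate dehydrogenase subunit. It had 1595, 1570 and 1507 CPM in dexamethasone libraries, against 928, 925 and 959 CPM in controls. Every dexamethasone library exceeded every control by far more than replicates differed. Ldha rose by 66.2%, a log2 fold change of 0.73 ± 0.029 (edgeR, adjusted p = 7.6e-28). It ranked 62 among 30211 genes per exon length with dexamethasone and 110 in controls, where its 1139 to 1182 TPM overlapped the 1125 to 1157 TPM of Pkm. Ldhb, the heart-type subunit, averaged 10.2 ± 0.705 CPM with dexamethasone and 10.2 ± 1.05 CPM in controls and did not pass (log2 0.00 ± 0.10, edgeR, adjusted p = 0.97). Ldha outnumbered Ldhb 128 ± 6.38 to 1 in TPM with dexamethasone and 77.5 ± 8.12 to 1 in controls (SD, n = 3 each).

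Slc16a1 and Slc16a3 encode the monocarboxylate transporters MCT1 and MCT4, and MCT4 is typical of cells that export lactate. The genes lie on chromosome 2 (207108552 to 207128554) and chromosome 10 (110138586 to 110148358). Slc16a1 had 377, 375 and 381 CPM in dexamethasone libraries against 588, 578 and 570 CPM in controls. Slc16a3 had 16.2, 16.2 and 16.7 CPM in dexamethasone libraries against 36.5, 38.1 and 40.5 CPM in controls. In both genes all 3 dexamethasone libraries lay below all 3 controls. The log2 fold changes were -0.62 ± 0.015 for Slc16a1 and -1.23 ± 0.046 for Slc16a3 (edgeR, adjusted p = 1.8e-24 and 1.5e-22). Slc16a1 supplied 95.2% ± 0.0452 of the summed TPM of the pair with dexamethasone and 92.9% ± 0.457 in controls.

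**Figure D3:**
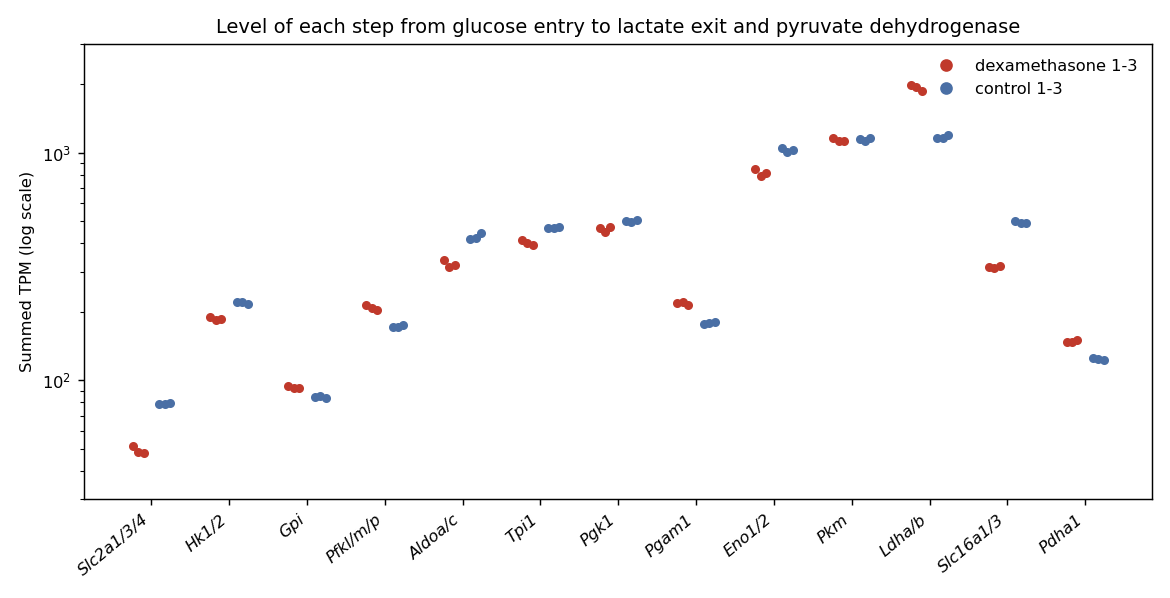
Summed TPM of the genes of each step, from glucose carriers to lactate carriers and Pdha1, on a log scale; each point is a library. The summed carriers for glucose (47.9 to 51.6 TPM with dexamethasone, 78.5 to 79.6 TPM in controls) and for lactate (312 to 318 TPM with dexamethasone, 489 to 499.7 TPM in controls) are lower with dexamethasone, while the lactate dehydrogenases are higher (1872 to 1980 TPM with dexamethasone, 1155 to 1197 TPM in controls).

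At the pyruvate dehydrogenase complex, 3 of the 4 kinases that inactivate it rose, and so did the phosphatase Pdp1 that reactivates it. Pdk4 (chromosome 4, 30546664 to 30556814) encodes the kinase isoform known to be induced by fasting and glucocorticoids in muscle. It had 18.6, 17.7 and 18.0 CPM in dexamethasone libraries, against 1.22, 0.836 and 0.999 CPM in controls. Every dexamethasone library was far above the controls, where the gene was scarce but counted in each library. Pdk4 rose 17.8-fold, a log2 fold change of 4.15 ± 0.15 (edgeR, adjusted p = 1.4e-30), and 1.37% of all tested genes changed by more. Pdk2 (chromosome 10, 82839153 to 82852660) encodes a widely expressed isoform. It had 7.01, 8.76 and 8.86 CPM with dexamethasone and 5.88, 4.89 and 4.67 CPM in controls. The groups did not overlap, but the closest libraries of the 2 groups lay nearer to each other than the highest and lowest dexamethasone libraries. Its log2 fold change was 0.67 ± 0.15 (edgeR, adjusted p = 2.3e-06).

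Pdk3 rose by 0.20 ± 0.022 on the log2 scale and Pdk1, a target of hypoxia signalling, fell by 0.23 ± 0.038 (edgeR, adjusted p = 3.5e-05 and 0.0019). Despite its fold change, Pdk4 was not the main isoform: Pdk3 made up 48.9% ± 0.385 of the summed TPM of the 4 kinases with dexamethasone and 57.1% ± 0.819 in controls, and Pdk4 19.4% ± 0.941 with dexamethasone and 1.45% ± 0.246 in controls (SD, n = 3 each). The 4 kinases summed to 114 to 120 TPM with dexamethasone and 85.3 to 90.2 TPM in controls.

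Pdp1 (chromosome 5, 25577451 to 25584288) encodes a catalytic subunit of pyruvate dehydrogenase phosphatase. It had 32.2, 30.7 and 29.5 CPM in dexamethasone libraries against 8.71, 10.1 and 7.62 CPM in controls. All dexamethasone libraries stood far above all controls. Pdp1 rose 3.50-fold, a log2 fold change of 1.81 ± 0.12 (edgeR, adjusted p = 1.6e-23). As Pdp1 rose by more than the summed kinases, the ratio of summed kinase TPM to Pdp1 TPM was 5.36 ± 0.369 with dexamethasone and 14.2 ± 1.82 in controls (SD, n = 3 each). The other phosphatase gene, Pdp2, had 5.77 ± 0.181 TPM with dexamethasone and 6.66 ± 0.379 TPM in controls and did not pass (edgeR, adjusted p = 0.089). With Pdp1 and Pdp2 summed, a setting chosen after seeing the data, the ratio was 4.24 ± 0.226 with dexamethasone and 6.80 ± 0.451 in controls. Pdha1, the catalytic subunit they act on, rose by 20.0% (edgeR, adjusted p = 1.5e-10). Its exons overlap those of AABR07038021.1 on the opposite strand by 251 bases, and that gene had 964 counts with dexamethasone and 859 in controls, against 25050 and 20863 for Pdha1. The ratio of Ldha to Pdha1 TPM was 12.9 ± 0.504 with dexamethasone and 9.33 ± 0.294 in controls.

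**Figure D4:**
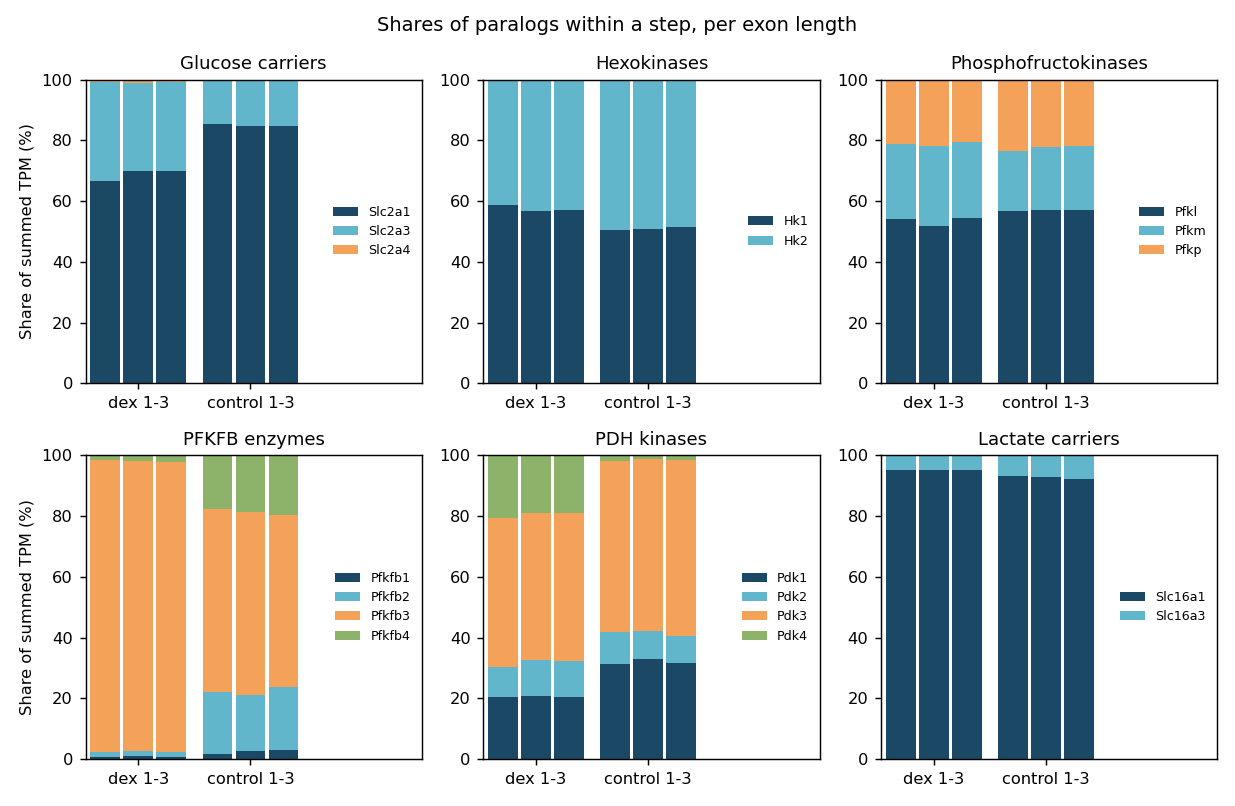
Share of each paralog in the summed TPM of its step, in percent, for dexamethasone libraries 1 to 3 and control libraries 1 to 3; each bar is a library. Pfkfb3 fills 95.8% of the PFKFB bars with dexamethasone and 59.2% in controls, and Slc2a3 and Pdk4 take larger shares with dexamethasone.

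Several of these enzymes have named pseudogenes in the rat genome. A rat gene table (RefSeq, assembly GRCr8) names 31 pseudogenes of Eno1, 30 of Ldha, 19 of Pkm, 13 of Pgam1, 9 of Aldoa, 8 of Pgk1, 3 of Tpi1 and 1 of Ldhb. Of these only an Eno1 copy was matched in the count table, with 1250 counts with dexamethasone and 1764 in controls, equal to 1.38% and 1.56% of the counts of Eno1. The counting of reads that map to several places was not given in the sources used here, so the levels of these 8 genes are uncertain. Tpi1 also overlaps LOC100911548 by 1 base.

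The other genes around glycolysis were described by lists. Of all tested genes 64.0% were called, 32.3% higher and 31.7% lower. Among 8 tested carriers of glucose and fructose outside the 33 genes, 2 rose, 1 fell and 5 did not pass. Slc2a13, a myo-inositol carrier, and Slc2a9, a urate carrier, rose by 1.27 ± 0.25 and 0.83 ± 0.19 on the log2 scale (edgeR, adjusted p = 6.2e-08 and 2.3e-04), both at under 5 CPM. Among 16 tested glycolytic and gluconeogenic enzymes outside the 33, 3 rose, 4 fell and 9 did not pass. Pc, pyruvate carboxylase, which makes oxaloacetate from pyruvate, averaged 103 ± 2.40 CPM with dexamethasone and 30.1 ± 1.47 CPM in controls (SD, n = 3 each; log2 1.78 ± 0.044, edgeR, adjusted p = 3.3e-34). Pck2, the mitochondrial enzyme that makes phosphoenolpyruvate, fell to 12.4 ± 1.26 CPM against 32.5 ± 1.35 CPM in controls. Slc37a4, the glucose 6-phosphate carrier of the endoplasmic reticulum, rose by 0.49 ± 0.091 on the log2 scale. Pck1 and G6pc, the classic glucocorticoid-induced gluconeogenic genes of liver, were under the floor and were not tested.

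Of 11 tested genes for pyruvate entry and the remaining pyruvate dehydrogenase subunits, 4 rose, 3 fell and 4 did not pass. Thus 63.6% were called, against 64.0% of all tested genes. Slc16a7, which encodes the transporter MCT2, fell to 15.7 ± 0.497 CPM with dexamethasone against 45.6 ± 2.29 CPM in controls (SD, n = 3 each; log2 -1.54 ± 0.049). Thus each of the 3 transporters MCT1, MCT4 and MCT2 was lower. Emb, an accessory protein of monocarboxylate transporters, rose by 0.94 ± 0.035 and Pdhb, the other subunit of the dehydrogenase, by 0.31 ± 0.042 on the log2 scale. For Slc16a7, Emb and Pdhb, edgeR's adjusted p reached 8.3e-10 at most. Emb overlaps AABR07008255.1 on the opposite strand by 103 bases. That gene had 300 counts with dexamethasone and 184 in controls, against 2528 and 1319 for Emb.

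Branches that draw on glycolytic intermediates moved in both directions. Of 10 tested pentose phosphate genes, 4 rose, 4 fell and 2 did not pass, so 80% were called, against 64.0% of all tested genes. H6pd, an enzyme of the endoplasmic reticulum that supplies NADPH to the glucocorticoid-activating enzyme there, rose to 52.3 ± 0.635 CPM with dexamethasone against 18.9 ± 1.49 CPM in controls (SD, n = 3 each; log2 1.47 ± 0.067, edgeR, adjusted p = 1.1e-26). Prps1, which makes phosphoribosyl pyrophosphate, rose by 0.52 ± 0.014 on the log2 scale.

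Glycogen genes numbered 23 tested, with 6 rises, 7 falls and 10 that did not pass. Thus 56.5% were called, against 64.0% of all tested genes. The liver-type phosphorylase Pygl fell to 37.0 ± 0.173 CPM with dexamethasone against 67.7 ± 2.74 CPM in controls, while the brain-type Pygb rose to 75.9 ± 1.13 CPM against 44.2 ± 1.99 CPM in controls (SD, n = 3 each). Pygb overlaps Abhd12 on the opposite strand by 79 bases. Abhd12 had 9196 counts with dexamethasone and 4946 in controls, against 8956 and 5226 for Pygb. The part of Abhd12 reads in the Pygb counts was not tested. Stbd1, a glycogen-binding protein, fell by 1.86 ± 0.14 on the log2 scale. All 16 tested genes of the hexosamine, polyol and serine branches were called, 6 up and 10 down, against 64.0% of all tested genes. Their median log2 fold change was -0.45, against 0.00 for all genes. Phgdh, which opens serine synthesis from a glycolytic intermediate, Shmt2, the mitochondrial serine hydroxymethyltransferase, and Uap1, the last enzyme of the hexosamine branch, fell by 1.51 ± 0.084, 1.36 ± 0.021 and 1.26 ± 0.031 on the log2 scale (edgeR, adjusted p at most 2.8e-26).

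**Figure D5:**
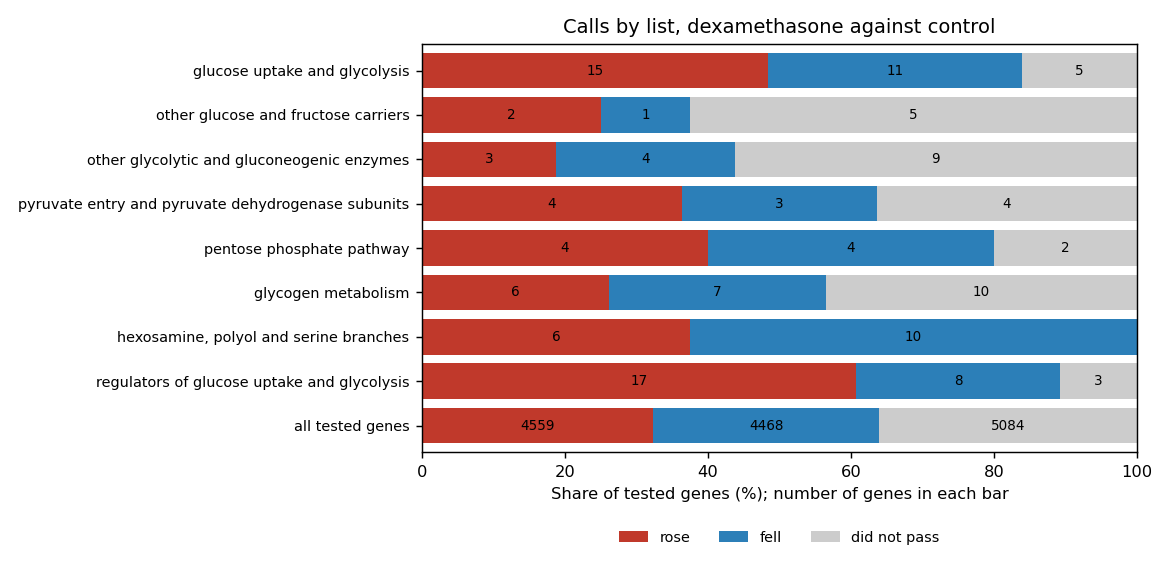
Share of tested genes that rose, fell or did not pass, in percent, for the genes of glucose uptake and glycolysis, for 7 related lists and for all 14111 tested genes; numbers in the bars are genes. The glucose uptake and glycolysis genes show 15 rises, 11 falls and 5 that did not pass.

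Known regulators of glucose uptake and glycolysis were called in 25 of 28 tested cases, 17 up and 8 down. Among all tested genes 64.0% were called, 32.3% up and 31.7% down. Txnip, an arrestin that removes glucose carriers from the cell surface, had 29.5, 27.2 and 30.5 CPM in dexamethasone libraries against 2.18, 2.53 and 2.85 CPM in controls. Every dexamethasone library was far above every control, with a log2 fold change of 3.53 ± 0.12 (edgeR, adjusted p = 2.5e-32). Its relative Arrdc4 had 2.84 to 3.60 CPM with dexamethasone and 3.57 to 3.85 CPM in controls and did not pass (edgeR, adjusted p = 0.27).

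Genes of the hypoxia-inducible factors moved in different directions. Hif1a, whose product activates many glycolytic genes, had 205, 213 and 214 CPM in dexamethasone libraries against 595, 587 and 595 CPM in controls. Its log2 fold change was -1.49 ± 0.021. Epas1, which encodes HIF-2 alpha, averaged 167 ± 7.26 CPM with dexamethasone and 16.1 ± 0.576 CPM in controls (SD, n = 3 each; log2 3.38 ± 0.047). Hif3a had 2306 counts with dexamethasone and none in controls, at least 385-fold higher by a floor of 6 counts over the control group. For Hif1a, Epas1 and Hif3a, edgeR's adjusted p reached 2.4e-33 at most. Myc, another activator of glycolytic genes, fell by 0.55 ± 0.053 on the log2 scale, and Nr4a1, an early-response nuclear receptor, by 2.56 ± 0.074. Klf15 and Foxo1, transcription factors of fasting metabolism, rose by 1.60 ± 0.029 and 2.26 ± 0.13, and Cebpb by 0.48 ± 0.15. EdgeR's adjusted p was 3.7e-04 for Cebpb and at most 2.2e-13 for Myc, Nr4a1, Klf15 and Foxo1.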

How the data were processed

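RNA was sequenced from 6 rat BMSC samples, 3 with dexamethasone and 3 controls. The deposited values are read counts per gene with exon positions and exon length, per the file headers. Per the labels' protocols, RNA came from RNeasy columns and the SMARTER mRNA-seq kit was used for library preparation. The sources used here do not give the aligner, counting program, strandedness or handling of multi-mapping reads. The submitters' processing notes name mm10, a mouse build. Of 30211 gene names, 17432 are in a rat gene table (RefSeq, assembly GRCr8), but this match alone cannot tell rat from mouse names. The deposited coordinates place Hk1 and Pfkl on chromosome 20, which mouse lacks. Coordinates are therefore those of the count table itself, whose rat build was not given in the sources used here. No column belonged to another sample, and no 2 libraries were identical.

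Genes were filtered with filterByExpr (14111 kept, 16100 left out), normalised with TMM, and tested in R 4.3.3 with edgeR 4.0.16 (robust quasi-likelihood fit, no covariate, Benjamini-Hochberg over all tested genes). CPM are TMM-scaled; TPM were computed from the counts and the table's exon lengths. SEs were computed from replicate log2 CPM values with a prior count of 2. Of 26067 values between 1 and 20 counts, 70.3% were even, against 50.6% of values of 1000 or more, so 3 read pairs, or 6 counts, served as the floor. It covers counting error only, because PCR copies were not marked by molecular identifiers. With 3 libraries a group, shares and sums are described without a test. On simulated data for this comparison (13960 genes), 28 of 50 changes of 1.2-fold, 41 of 50 of 1.5-fold, 49 of 50 of 2-fold and 46 of 50 of 4-fold were recovered, with 7 false calls. Changed genes lost to the filter counted as missed. Only these genes were changed and every gene had the same dispersion, whereas 64.0% of the real tested genes were called. The recovery and false calls may therefore not hold for the real data.

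The 34 symbols and the related lists were chosen with earlier results of these data known. Genes named outside the 34 were the 3 called genes with the smallest p-value and a mean of at least 1 CPM in each related list, or all where fewer were called, 9 fixed regulators, and Fkbp5; Pck1, G6pc, Pdp2 and the marker genes were named in addition. 1 gene that this rule selects is not reported here. Called members with a log2 change of at least 0.5 and a mean of at least 1 CPM are given in every library. Alternatives were other scalings, no low-count filter, DESeq2 1.42.0, limma-voom (limma 3.58.1), a replicate block, a fixed coefficient of variation, a fold threshold and leaving out each replicate. Promoter and protein sequences were not used here.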

Additional observations from a re-analysis of the deposited data

How the results depend on the processing

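The count of called glucose uptake and glycolysis genes was 26 (15 higher, 11 lower) with DESeq2 size factors, library size alone, no low-count filter, DESeq2, limma-voom and without each replicate in turn, although without dexamethasone replicate 1 the call of Pfkfb2 was lost and Hk1 was called. Deviations from the group means correlated at 0.0026, -0.0078 and 0.020 for equal replicate numbers, and at -0.033 to 0.031 for unequal numbers. With 3 libraries a group this cannot settle whether the samples were paired. With the replicate block the count was 26 of the glucose genes and 8991 of all genes (9027 without), and no named call changed. The settings that allow for more spread or ask for a larger change lowered the counts. The coefficient of variation estimated between replicate libraries was 3.66%, low enough that small changes gave very small p-values. With a coefficient of variation of 0.2 instead, 11 glucose genes passed (7 higher, 4 lower) and 3693 of all genes (1993 and 1700). Against a fold of 1.5, 9 passed (6 higher, 3 lower) and 2827 of all genes (1549 and 1278). The 9 were Slc2a1, Slc2a4 (near the floor in controls), Pfkfb1, Pfkfb3, Eno2, Ldha, Slc16a3, Pdk4 and Pdp1. Slc16a1 and Pdk2 passed in addition with that coefficient of variation, where Pfkm had an adjusted p of 0.055. Called counts in the related lists with that coefficient and against that fold were 3 and 2 for other glycolytic and gluconeogenic enzymes (7 in the fit reported), 2 and 2 for pyruvate entry (7), 5 and 3 for the pentose phosphate pathway (8), 5 and 3 for glycogen (13), 9 and 7 for the hexosamine, polyol and serine branches (16), and 15 and 14 for regulators (25). Other carriers gave 5 with library size alone (3 reported). Genes that did not pass turned sign: Pkm to 0.032 with library size alone, 6.0e-05 without the filter and -0.019 to 0.0066 without 1 replicate; Ldhb to 0.033, 0.0012 and -0.077 to 0.070 in those settings; Pfkfb4 to -0.24 to 0.033 without 1 replicate. On CPM without division by length, the difference in share was -11.6 percentage points for Slc2a1 (-16.1 on TPM), 29.5 for Pfkfb3 (36.7) and 15.2 for Pdk4 (17.9), and the log2 ratio of summed levels was -0.78 for glucose carriers, -0.30 for hexokinases, -0.11 for upper glycolysis, 3.45 for PFKFB genes and 0.33 for lactate genes (-0.68, -0.23, -0.16, 3.28 and 0.43 on TPM); the change follows from the lengths of the paralogs. Promoter motifs were not run.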
